A study of Mus musculus with 24 samples.

Results

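The imprinted gene *Plagl1*, also known as *Zac1*, lies on chromosome 10 of the mouse in the *Zac1* imprinted domain. *Plagl1* and 4 genes beside it, *Sf3b5*, *Ltv1*, *Phactr2* and *Fuca2*, were examined in RNA-seq data of E13.5 embryos, and these are 5 of the 34745 genes in the expression table. They were chosen by name, with the difference between the groups compared here already known, and in this sense they were selected on that difference. Their values in this comparison are therefore given as a description, and no p is given for them. Standard errors and intervals give the uncertainty of the group difference as estimated from the fit. They are not read as tests, since the genes were selected on that difference. All 5 genes passed the filter on low counts, together with 16021 other genes.

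ZFP57 is a KRAB zinc finger protein that binds methylated DNA at imprinting control regions (ICRs) and helps to maintain their methylation after fertilization. In the mother's germ line DNA methylation is laid down over the *Plagl1* promoter, which is shared with the noncoding RNA gene *Hymai*, so that *Plagl1* is normally expressed from the paternal chromosome. The product of *Plagl1* is a zinc finger transcription factor of the PLAG family, known for its expression in embryonic tissues and for growth arrest when it is overproduced in cultured cells.

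The 12 RNA libraries came from total embryos of the hybrid 129/DBA background, with 1 library per embryo. Embryos lacking maternal *Zfp57* but carrying a wild-type allele from the father (M-Z+, n = 6) were compared with embryos lacking both maternal and zygotic *Zfp57* (M-Z-, n = 6). By the methods of the study, the mothers were *Zfp57*-/- on the 129S6/SvEvTac background and the fathers *Zfp57*+/- mainly on DBA/2J. Both groups therefore lack maternal *Zfp57*, so that the comparison is about the zygotic gene, and wild-type embryos were not analysed here for RNA. The labels do not give the sex, the litter or the batch of an embryo. Total counts on genes ranged from 12347383 to 19216288 in M-Z+ embryos (median 14142528) and from 12005145 to 14617373 in M-Z- embryos (median 13356726). Values are given as CPM, for which each count was divided by the TMM-normalized size of its library. The counts are totals over the 2 parental alleles.

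The *Zfp57* gene itself had 19.1, 23.7 and 40.8 CPM in the lowest, median and highest M-Z+ embryo and 17.8, 26.5 and 27.8 CPM in the lowest, median and highest M-Z- embryo. The groups overlapped, and *Zfp57* was not called changed (log2 fold change −0.15 with a standard error, SE, of 0.18, and an adjusted p of 0.828 by edgeR). Since reads from the deleted part of the mutant allele were not counted apart from the rest of the gene, this value does not check the genotypes.

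Among the 12 libraries, 3 stood apart in how their counts depended on gene length. Over the tested genes, the slope of log2 CPM against the log2 of gene length was 0.67 in M-Z+ replicate 6 and 0.66 and 0.67 in M-Z- replicates 5 and 6, whereas it lay between 0.44 and 0.57 in the other 9 libraries. Both groups hold such a library, 1 among the M-Z+ and 2 among the M-Z- embryos, and the relation of the 5 genes and of cell type markers to this slope is given with them.

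*Plagl1* (ENSMUSG00000019817, chr10:13060504-13131694 on GRCm38) had 367, 498 and 597 CPM in the lowest, median and highest M-Z+ embryo. In M-Z- embryos it had 1066, 1175 and 1291 CPM in the lowest, median and highest embryo. Every M-Z- embryo lay above every M-Z+ embryo, and the groups did not overlap. *Plagl1* averaged 487 ± 95.9 CPM in M-Z+ against 1173.9 ± 78.8 CPM in M-Z- embryos (± SD, n = 6), which is a difference of 2.41-fold (log2 fold change 1.27, SE 0.12, 95% interval 1.01 to 1.53). The spread was wider among M-Z+ embryos, where the SD was 19.7% of the mean, than among M-Z- embryos, where it was 6.71%. Raw counts on this gene were never below 4825 in any library, so that counting error is small beside the spread between embryos. Because total embryos were used, more cells with *Plagl1* RNA and more RNA per cell cannot be told apart.

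**Figure D1:**
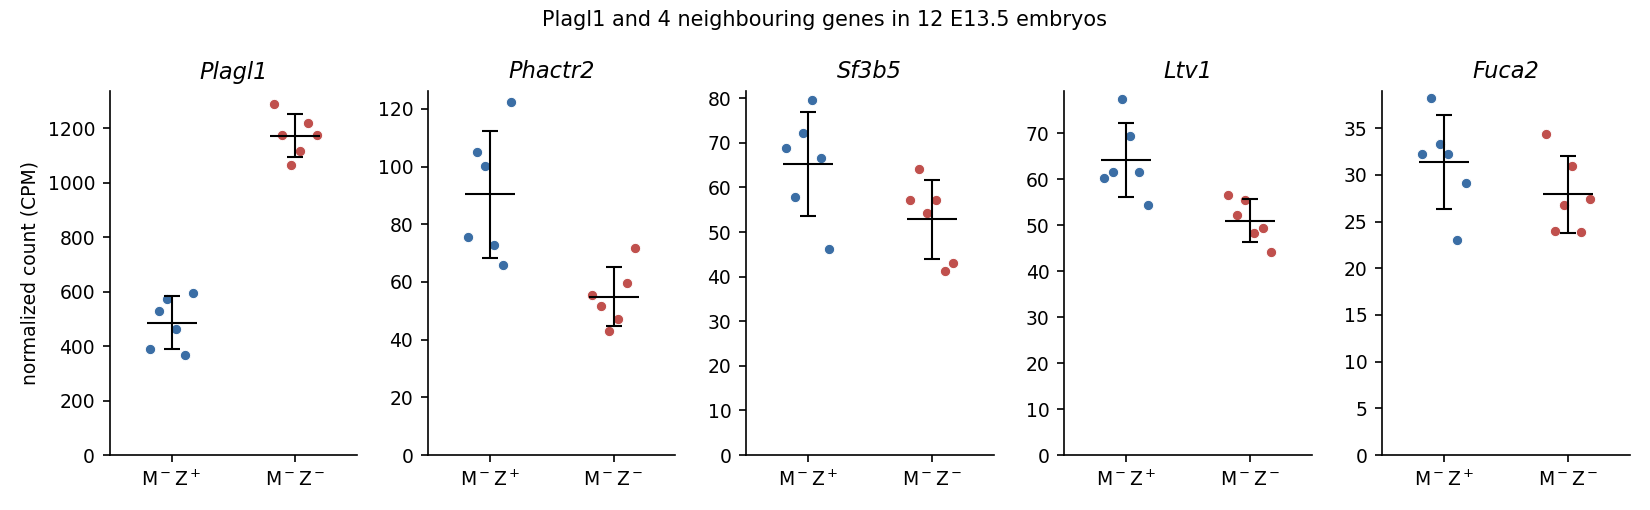
Normalized counts (CPM, y axis from 0, a separate scale for each gene) of *Plagl1*, *Phactr2*, *Sf3b5*, *Ltv1* and *Fuca2* in each embryo, with M-Z+ embryos in blue and M-Z- embryos in red. Lines and bars are the mean and SD of 6 embryos; for *Plagl1* the groups do not overlap (highest M-Z+ embryo 597 CPM, lowest M-Z- embryo 1066 CPM), and for each of the other genes they do.

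*Phactr2* (ENSMUSG00000062866, chr10:13207717-13474396) encodes a protein that binds actin and protein phosphatase 1, and it has been reported to be expressed mainly from the maternal allele. The nearer edge of its row lies 76022 bases from *Plagl1*, and since the gene is on the minus strand it ends at this edge. It had 66.0, 87.9 and 122 CPM in the lowest, median and highest M-Z+ embryo and 43.0, 53.6 and 71.9 CPM in the lowest, median and highest M-Z- embryo. Most M-Z- embryos were low, with 5 of 6 below every M-Z+ embryo, but M-Z- replicate 6 lay above M-Z+ replicate 5. *Phactr2* averaged 90.3 ± 22.1 CPM in M-Z+ against 54.8 ± 10.2 CPM in M-Z- embryos (± SD, n = 6), with a log2 fold change of −0.72 (SE 0.16, 95% interval −1.07 to −0.37). The highest embryo of each group was replicate 6, a library with a steep slope on gene length, and the deposited values imply a length of 13653 bases for *Phactr2*, against 2874 for its longest protein-coding transcript in GENCODE. Without the 3 libraries of steep slope (a setting added once the values had been seen) the log2 fold change was −0.77. With the slope as a covariate in the model it was −0.90.

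*Ltv1* (ENSMUSG00000019814, chr10:13178640-13193137), which encodes a factor for the assembly and export of the small ribosomal subunit, lies between *Plagl1* and *Phactr2*. It had 54.4, 61.6 and 77.6 CPM in the lowest, median and highest M-Z+ embryo and 44.1, 50.8 and 56.7 CPM in the lowest, median and highest M-Z- embryo. M-Z+ replicate 6 was the only M-Z+ embryo within the range of the M-Z- embryos. *Ltv1* had a log2 fold change of −0.33 (SE 0.09, 95% interval −0.53 to −0.13). The lowest embryo of each group was replicate 6, a library of steep slope, and with the slope as a covariate the log2 fold change was −0.25.

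On the other side of *Plagl1*, *Sf3b5* (ENSMUSG00000078348, chr10:13005343-13009183) encodes a small subunit of SF3b, the part of the U2 snRNP that recognizes the branch point in splicing. It had 46.2, 67.7 and 79.7 CPM in the lowest, median and highest M-Z+ embryo and 41.3, 55.7 and 64.2 CPM in the lowest, median and highest M-Z- embryo. The lowest embryos were again libraries of steep slope, M-Z+ replicate 6 and M-Z- replicate 5. The log2 fold change of *Sf3b5* was −0.30 (SE 0.14, 95% interval −0.60 to −0.01). With the slope on gene length as a covariate it was −0.11, a move of more than 1.5 times. Without the 3 libraries of steep slope it was −0.26. *Fuca2* (ENSMUSG00000019810, chr10:13499540-13519035), which encodes a secreted alpha-L-fucosidase, ranged over 23.1 to 38.2 CPM among M-Z+ and 23.9 to 34.4 CPM among M-Z- embryos. The groups overlapped over most of their ranges, with a log2 fold change of −0.17 (SE 0.12, 95% interval −0.44 to 0.10).

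Of the 5 genes, 1 (*Plagl1*) passed the call of adjusted p below 0.05 with a log2 fold change beyond 0.5, as did 13 of the 16026 tested genes (0.0811%). Likewise 1 of the 5 had groups that did not overlap, as did 92 of the tested genes (0.574%). Since the 5 genes were chosen with this comparison known, nothing is read from these counts.

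Levels per length were compared as TPM, with the gene length that the deposited FPKM values imply. In M-Z+ embryos the order of the means was *Ltv1* with 127 ± 14.4 TPM, *Plagl1* with 106 ± 25.7, *Sf3b5* with 59.0 ± 7.99, *Phactr2* with 23.4 ± 7.03 and *Fuca2* with 13.3 ± 2.39 TPM (± SD, n = 6). *Ltv1* (117 to 154 TPM) and *Plagl1* (76.7 to 140 TPM) overlapped in this order, as did *Phactr2* (16.3 to 34.0 TPM) and *Fuca2* (9.38 to 16.8 TPM). In M-Z- embryos *Plagl1* came first with 261 ± 22.2 TPM, followed by *Ltv1* with 103 ± 8.20, *Sf3b5* with 49.1 ± 7.04, *Phactr2* with 14.5 ± 3.18 and *Fuca2* with 12.03 ± 1.67 TPM (± SD, n = 6). Here *Phactr2* (11.1 to 19.8 TPM) and *Fuca2* (10.2 to 14.7 TPM) overlapped, and the other neighbours in the order did not. Among the tested genes *Plagl1* ranked 1509th by mean TPM in M-Z+ and 491st in M-Z- embryos. The order depends on the length used. The implied length is 16158 bases for *Plagl1*, 13653 for *Phactr2*, 3841 for *Sf3b5* and 8302 for *Fuca2*, whereas their longest protein-coding transcripts in GENCODE have 5260, 2874, 733 and 5741 bases, and for *Ltv1* both are 1766. Per kilobase of the longest GENCODE transcript, the mean level in M-Z+ embryos was 92.6 CPM for *Plagl1*, 89.0 for *Sf3b5*, 36.3 for *Ltv1*, 31.4 for *Phactr2* and 5.47 for *Fuca2*, so that *Plagl1* was then above *Ltv1* in both groups.

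*Zc2hc1b* lies between *Plagl1* and *Ltv1*, and it had 3 counts in M-Z+ replicate 1 and 0 in the other 11 libraries. Within 1 Mb of *Plagl1* on either side, the table holds 9 rows besides the 5 genes, of which 6 passed the filter on low counts. None of these 6 was called by edgeR's quasi-likelihood test, which called none at an unadjusted p below 0.05 either, and DESeq2 called none. The nearest tested gene outside the group was *Stx11*, which encodes a syntaxin of immune cells and is 96244 bases from *Plagl1*. *Stx11* averaged 5.17 ± 1.37 CPM in M-Z+ against 5.07 ± 1.28 CPM in M-Z- embryos (± SD, n = 6); its log2 fold change was −0.04 with an SE of 0.21 (edgeR, adjusted p = 0.966). Beyond it, *Utrn*, which encodes the dystrophin relative utrophin, had a log2 fold change of 0.25 (SE 0.20, 95% interval −0.17 to 0.68). On the side of *Fuca2*, the log2 fold changes were −0.12 for *Pex3* (a peroxisome assembly factor), −0.26 for *Adat2* (a tRNA deaminase subunit), −0.12 for *Aig1* and 0.24 for *Hivep2* (a zinc finger transcription factor). For all 6 genes the M-Z+ and M-Z- embryos overlapped. The rows of *Pex3* and *Adat2* overlap by 249 bases, and reads there could have been divided between them.

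**Figure D2:**
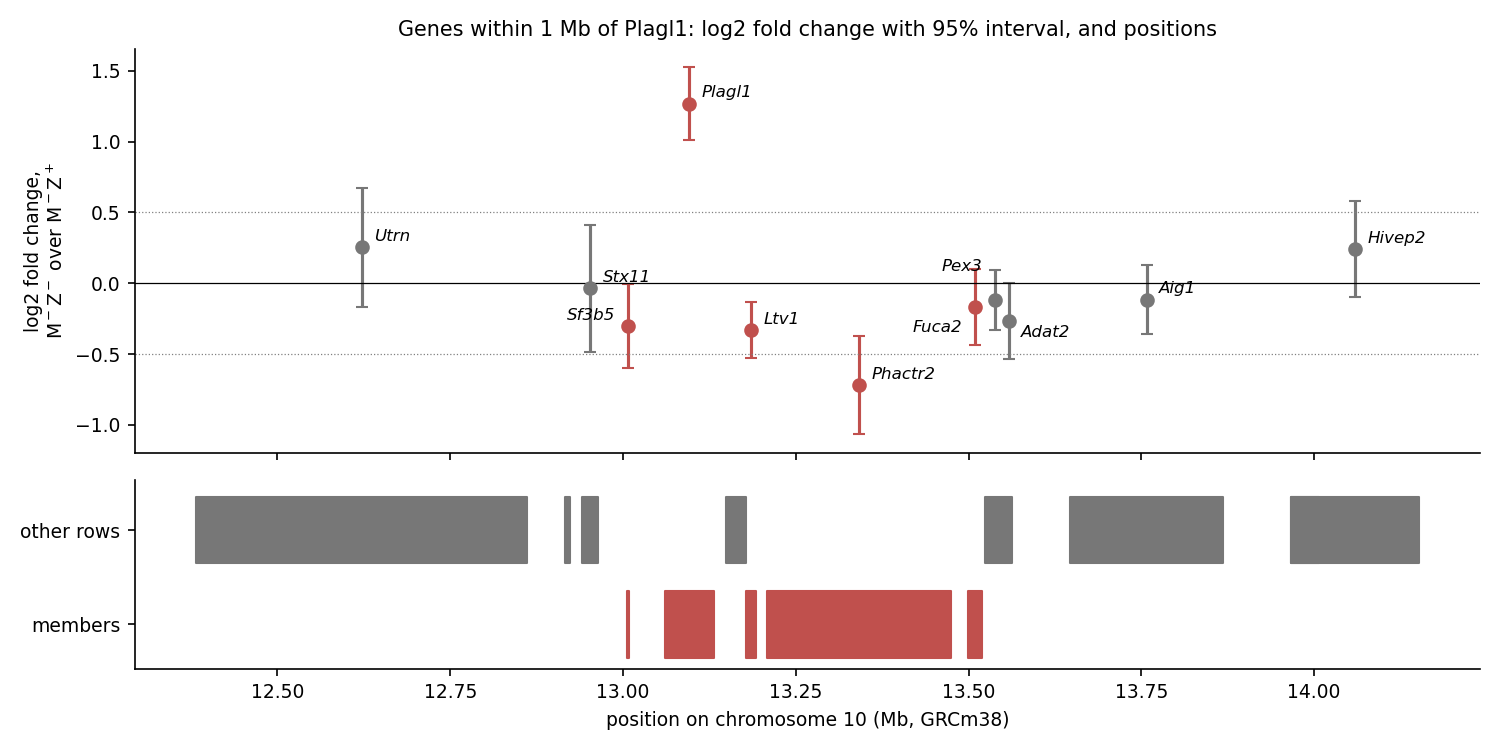
Log2 fold change of M-Z- over M-Z+ embryos (points, with 95% intervals from edgeR; dotted lines at 0.5 in either direction) for the tested genes within 1 Mb of *Plagl1*, above the positions of all rows on chromosome 10 (x axis, Mb on GRCm38), the 5 examined genes in red and the other rows in grey. *Plagl1* stands at 1.27, *Phactr2* at −0.72, *Ltv1* at −0.33, *Sf3b5* at −0.30 and *Fuca2* at −0.17. The 6 tested rows outside the 5 examined genes lie between −0.26 and 0.25.

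To see how the 5 genes varied among embryos of the same genotype, the mean of its group was taken from each embryo's log2 CPM, which removes the difference that the genes were chosen on. Over the 12 embryos, *Plagl1* and *Phactr2* then varied together (Pearson r = 0.81, Spearman rho = 0.85). This was so within each group, with r = 0.92 in the 6 M-Z+ and r = 0.58 in the 6 M-Z- embryos. Without M-Z+ replicates 5 and 6, the embryos farthest from the median of *Plagl1*, r was 0.66. Between the groups the 2 genes thus differed in opposite directions, whereas between embryos of a group they went up and down together. *Phactr2* also followed the slope on gene length (r = 0.83), and *Plagl1* did so less closely (r = 0.48). After the slope was taken out of both genes, their r was 0.83. *Sf3b5* moved against the slope (r = −0.94), as did *Ltv1* (r = −0.64), and these 2 genes varied together (r = 0.70, and 0.35 after the slope was taken out). *Fuca2* showed little relation to the slope (r = −0.19). Taking the slope out also changed other pairs, so that the covariation of *Plagl1* and *Phactr2* was not particular to them. The r of *Phactr2* with *Fuca2* went from 0.26 to 0.76, and that of *Plagl1* went from 0.11 to 0.63 with *Ltv1* and from 0.44 to 0.62 with *Fuca2*. *Phactr2* and *Sf3b5* turned from −0.70 to 0.42, and *Phactr2* and *Ltv1* from −0.36 to 0.41. These are descriptions over 12 libraries that share the same normalization, and the part of RNA quality in them was not tested.

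**Figure D3:**
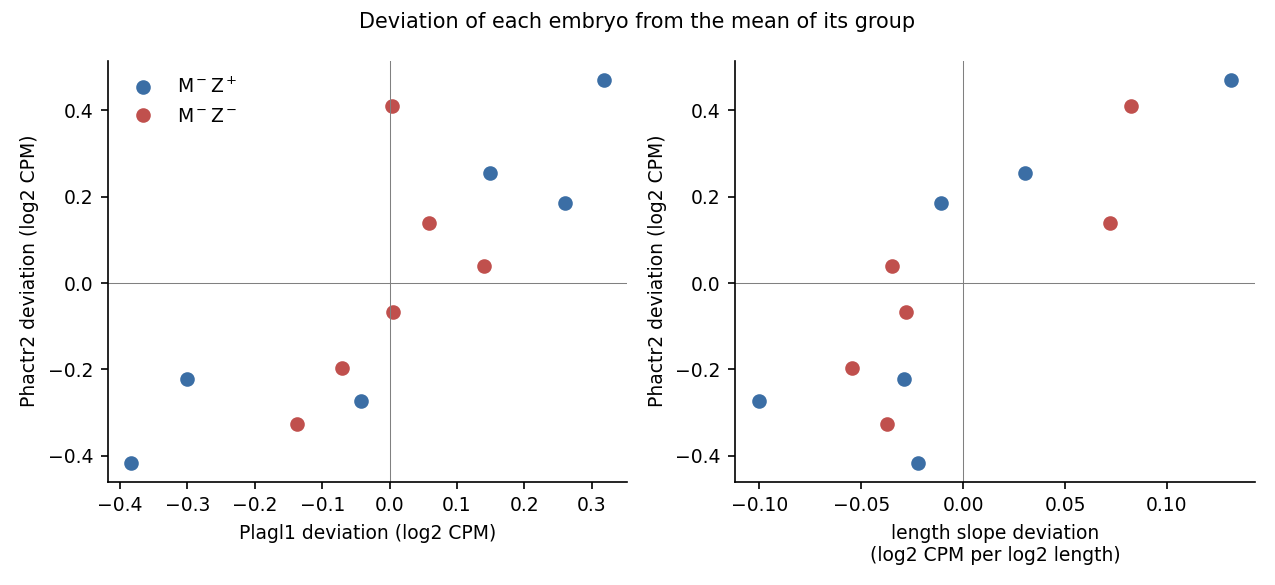
Deviation of *Phactr2* in each embryo from the mean of its group (y axis, log2 CPM) against that of *Plagl1* (left) and against that of the slope of log2 CPM against log2 gene length (right), for 6 M-Z+ (blue) and 6 M-Z- (red) embryos. Pearson r over the 12 embryos is 0.81 on the left and 0.83 on the right.

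Among 11338 other tested genes with a mean of at least 10 CPM, the within-group correlation with *Plagl1* ranged from −0.95 to 0.96, with a median of −0.07 and quartiles at −0.41 and 0.36. The 5 highest values belonged to *Snx10* (r = 0.96), *Pi4k2b* (0.94), *Rhoq* (0.93), *Nr1d2* (0.93) and *Sema3d* (0.93). The 5 lowest belonged to *Nap1l4* (r = −0.95), *Kctd17* (−0.93), *Ppp1r18* (−0.93), *Hes6* (−0.92) and *Zfp574* (−0.91). None of these 10 genes was called between the groups by edgeR, and none of them lies on chromosome 10. *Phactr2* ranked 110th from the top, *Fuca2* 2266th, *Ltv1* 4409th and *Sf3b5* 8064th. With 12 embryos and so many genes, high values arise in number, and the extremes are given only as a description.

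The relatives and partners of the 5 genes were then examined. The other members of the PLAG family, *Plag1* and *Plagl2*, were not called, with log2 fold changes of 0.24 (SE 0.40) and 0.39 (SE 0.61). *Plagl2*, the more abundant, averaged 47.5 ± 42.8 CPM in M-Z+ against 62.2 ± 44.3 CPM in M-Z- embryos (± SD, n = 6), with a wide spread between embryos of the same group. Of 12 genes linked to PLAGL1 in earlier work, all of which were tested, 1 was called lower and none higher. Over all tested genes, 13 of 16026 were called in either direction (0.0811%). The list was chosen with earlier results of these data known, and nothing is read from its count. The median log2 fold change was 0.10, beside −0.01 over all tested genes. The called gene was *Dlk1* (chr12:109452823-109463336), an imprinted growth regulator with an ICR of its own. It averaged 425 ± 87.0 CPM in M-Z+ against 79.5 ± 15.8 CPM in M-Z- embryos (± SD, n = 6). Its log2 fold change was −2.42 (SE 0.16). Its groups did not overlap, as was so for 92 of the 16026 tested genes (0.574%). Since the list was chosen with earlier results known, these values of *Dlk1* are a description and no p is given. The most abundant was *H19*, a noncoding RNA that averaged 2467 ± 835 CPM in M-Z+ against 2716 ± 721 CPM in M-Z- embryos (± SD, n = 6; log2 fold change 0.14, adjusted p by edgeR = 0.877). The growth factor gene *Igf2* and the cell cycle inhibitor gene *Cdkn1c* had log2 fold changes of 0.18 (SE 0.30) and −0.07 (SE 0.13).

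Apart from *Phactr2*, 6 genes of the PHACTR family and the catalytic subunits of protein phosphatase 1 were tested, and none was called. Their log2 fold changes lay between −0.16 (*Phactr1*) and 0.24 (*Ppp1cc*), with a median of −0.03. *Ppp1ca*, the most abundant of them, averaged 393 ± 65.5 CPM in M-Z+ against 375 ± 52.8 CPM in M-Z- embryos (± SD, n = 6). PHACTR proteins bind actin monomers in competition with the MRTF coactivators of SRF, and among 12 genes of actin, MRTF and SRF none was called. Their log2 fold changes ran from −0.17 (*Ctgf*) to 0.24 (*Vcl*), with a median near 0 (0.0036), and *Actb*, the most abundant, averaged 901 ± 232 CPM in M-Z+ against 802 ± 69.6 CPM in M-Z- embryos (± SD, n = 6). Of these 12 genes, 1 (*Vcl*) had an unadjusted p below 0.05 by edgeR, as had 1074 of all tested genes (6.70%). Nothing is read from this count.

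The partners of SF3B5 and LTV1 also gave no call. Besides *Sf3b5*, 13 genes of the SF3A and SF3B subunits and of related splicing factors were tested, *U2af1* and *U2af2* among them. Their log2 fold changes ran from −0.20 (*Phf5a*) to 0.13 (*Sf3b1*), with a median of −0.05. *Sf3b1*, the most abundant, averaged 545 ± 101 CPM in M-Z+ against 597 ± 109 CPM in M-Z- embryos (± SD, n = 6). Besides *Ltv1*, 14 genes of late assembly of the small ribosomal subunit were tested. Their log2 fold changes ran from −0.19 (*Bysl*) to 0.12 (*Tsr1*), with a median of −0.03, and *Rps3*, the most abundant, had −0.17 (SE 0.16). Among 15 lysosomal glycosidases, the relatives of FUCA2, none was called. *Fuca1*, which encodes the lysosomal fucosidase, had a log2 fold change of −0.16 (SE 0.12), and *Gaa*, the most abundant, averaged 87.0 ± 8.52 CPM in M-Z+ against 82.6 ± 11.5 CPM in M-Z- embryos (± SD, n = 6). Within these 3 lists, edgeR gave no unadjusted p below 0.05, and DESeq2 called no gene.

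For ZFP57 and the repressor complex that acts with it, 9 genes were tested, *Zfp57* itself among them, and none was called. *Zfp445*, which encodes the other KRAB zinc finger protein known to act at ICRs, averaged 85.9 ± 44.0 CPM in M-Z+ against 111 ± 35.0 CPM in M-Z- embryos (± SD, n = 6; log2 fold change 0.37, SE 0.31, adjusted p by edgeR = 0.768). *Trim28*, the corepressor, had a log2 fold change of −0.08, *Dnmt1*, the maintenance methyltransferase, 0.13, and *Cbx5*, the most abundant gene of the list, 0.21 (SE 0.12). In this list too edgeR gave no unadjusted p below 0.05, and DESeq2 called no gene.

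The make-up of the embryos was followed with summed CPM of 5 marker genes for each of 8 cell types. None of the 35 marker genes tested was called by edgeR or DESeq2. An unadjusted p below 0.05 by edgeR was found for 5 of them (14.3%), as for 1074 of all tested genes (6.70%). These were *Stmn2* and *Tubb3* among neuronal markers (log2 fold changes −0.21 and −0.24), *Hes5* and *Fabp7* among those of neural progenitors (−0.39 and −0.27) and *Nppa* in heart (−0.45). Neuronal markers summed to 979 to 1450 CPM in M-Z+ against 959 to 1100 CPM in M-Z- embryos, with *Tubb3* the most abundant and medians of 1188 and 993 CPM. For this sum 5 of 6 M-Z+ embryos lay above every M-Z- embryo, and only M-Z+ replicate 3 lay within the M-Z- range. Of the M-Z- embryos, 2 of 6 lay below every M-Z+ embryo. Markers of neural progenitors summed to 572 to 759 and 554 to 723 CPM, with *Nes* the most abundant and medians of 686 and 625 CPM. For cartilage the sums were 1297 to 2057 and 1528 to 2040 CPM (*Col2a1*), for skeletal muscle 620 to 807 and 634 to 952 CPM (*Myh3*), and for heart 364 to 432 and 336 to 575 CPM (*Myh7*). Liver markers ranged from 3345 to 6642 CPM in M-Z+ against 2519 to 6252 CPM in M-Z- embryos (*Afp*), and erythroid markers 4125 to 8529 and 5279 to 8493 CPM (*Hbb-y*). In M-Z+ and M-Z- embryos the medians were 1553 and 1714 CPM for cartilage, 649 and 714 for skeletal muscle and 399 and 420 for heart. They were 4879 and 4527 CPM for liver and 5985 and 6454 for erythroid markers. The ranges of the groups overlapped for each of these cell types, for neurons through 1 embryo. The 3 libraries of steep slope had the 3 highest skeletal muscle sums and the 3 lowest liver sums of the 12, and within the groups r with the slope was 0.81 for skeletal muscle, −0.80 for liver and 0.57 for neural progenitors. Trophoblast markers were at 0 for 4 of 5 genes in every library, and the fifth, *Prl3b1*, had 2 counts in all, so that these markers of placental tissue were near 0. Of the 35 relations between the 5 genes and the other 7 sums within the groups, 11 had an r of at least 0.6 in size, a limit set after the values had been seen. *Plagl1* (r = −0.64) and *Phactr2* (−0.66) both varied against the erythroid sum. *Phactr2* varied with the skeletal muscle sum (r = 0.74) and *Sf3b5* against it (−0.78), and *Sf3b5* (0.78) and *Ltv1* (0.86) with the liver sum. *Ltv1* also varied with cartilage (r = 0.72) and against neurons (−0.68) and neural progenitors (−0.83), *Sf3b5* against neural progenitors (−0.61), and *Fuca2* with cartilage (0.65). After the slope was taken out of both sides, 11 of the 35 again had this size, but they were in part other relations. With the neuronal sum, r was then −0.82 for *Plagl1*, −0.71 for *Phactr2* and −0.67 for *Ltv1*, and with that of neural progenitors −0.83, −0.62 and −0.73. *Plagl1* (0.64) and *Ltv1* (0.76) varied with liver, *Ltv1* (0.66) and *Fuca2* (0.63) with cartilage, and *Ltv1* against the erythroid sum (−0.64). Below this size were then *Plagl1* (−0.54) and *Phactr2* (−0.57) with the erythroid sum, *Phactr2* (0.21) and *Sf3b5* (−0.09) with skeletal muscle, and *Sf3b5* with liver (0.13) and neural progenitors (−0.25). The part of cell make-up in the levels of the 5 genes, and in their difference between the groups, was not tested.

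The promoter of *Plagl1* is shown because it carries the methylation imprint and because ZFP57 is known to recognize the methylated hexamer TGCCGC. In the RefSeq promoter table (GRCm38.p6), 4 of the 5 genes have an entry of 300 bases, from 250 before to 50 after an annotated start. For *Plagl1* and *Ltv1* this is where the RefSeq gene begins. The window of *Phactr2* is set 150236 bases inside the RefSeq gene and that of *Fuca2* 458 bases inside. The latter windows therefore do not describe the outermost RefSeq start. The letters TGCCGC, read on either strand, occurred in 2 of these 4 and in 11.6% of all 32851 promoters of this length. *Plagl1* and *Ltv1* held them once each, and the windows of *Phactr2* and *Fuca2* did not hold them. In the *Plagl1* window they are on the reverse strand, as GCGGCA, at chr10:13090742-13090747. This window has 26 CpG sites, more than 83.1% of all promoters, against 17 for *Ltv1*, 17 for *Phactr2*, 5 for *Fuca2* and a median of 7. The window lies inside the *Plagl1* gene as the expression table gives it, 13 bases before that of *Hymai* on the same strand. In the expression table *Plagl1* begins at 13060504, upstream of its RefSeq start at 13090832. Whether the counts of *Plagl1* include RNA from starts upstream of this window was not tested. *Hymai* was not found in the expression table by its symbol, and its reads cannot be told apart from those of *Plagl1* where their exons overlap. The match is a description and no binding was measured here. The sequences follow 5′ to 3′ on the strand of the gene, with the matching letters in capitals, for *Plagl1* at chr10:13090582-13090881 (plus strand) and *Ltv1* at chr10:13193088-13193387 (minus strand).
*Plagl1*: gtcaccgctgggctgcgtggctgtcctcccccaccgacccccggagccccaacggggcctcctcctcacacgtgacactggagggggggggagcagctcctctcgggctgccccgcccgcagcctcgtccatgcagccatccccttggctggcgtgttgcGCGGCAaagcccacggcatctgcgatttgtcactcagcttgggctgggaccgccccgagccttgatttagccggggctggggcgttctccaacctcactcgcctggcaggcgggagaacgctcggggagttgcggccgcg
*Ltv1*: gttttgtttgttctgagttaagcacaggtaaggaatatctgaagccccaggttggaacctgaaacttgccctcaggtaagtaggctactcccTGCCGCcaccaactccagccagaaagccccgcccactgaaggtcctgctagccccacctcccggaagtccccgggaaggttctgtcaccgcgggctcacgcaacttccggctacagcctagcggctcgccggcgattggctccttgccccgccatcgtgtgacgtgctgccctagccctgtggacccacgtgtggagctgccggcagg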

How the data were processed

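RNA-seq libraries of 6 M-Z+ and 6 M-Z- embryos were used, grouped by their labels. The authors deposited raw counts per gene, and the counting program, its use of strand and its annotation are not stated for these 12 libraries. The study's methods name featureCounts with a strand setting and an mm9 annotation for its RNA-seq embryos. They do not state whether these 12 libraries are among them. An mm9 annotation does not match the GRCm38 positions of the table. The FPKM values deposited beside them served to derive 1 length per gene, with which all of the 238855 FPKM values above 0.01 were recovered from counts within 0.1%. The submitters' processing notes name HISAT2 2.0.4, Trim Galore 0.4.1, Bismark 0.15.0, Bowtie2 2.2.9 and mm10, the same assembly as GRCm38. Whole-genome bisulfite libraries of the series were not analysed here.

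Counts were compared in R 4.3.3 with edgeR 4.0.16 (TMM, filterByExpr, glmQLFit and glmQLFTest) without covariates, with Benjamini-Hochberg adjustment over the 16026 tested genes. Calls required an adjusted p below 0.05 together with a log2 fold change over 0.5 in size. The standard error is the log2 fold change divided by the square root of F. Log2 CPM used a prior count of 2. The fits were tested on simulated counts.

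The 5 genes and all lists were chosen with earlier results of these data known. Named were the 5 genes, tested genes within 1 Mb of *Plagl1*, called and most abundant genes of each list, and the 5 genes most and least like *Plagl1*. Other named list genes were chosen after their values were seen. Alternatives were DESeq2 1.42.0, RLE size factors, filters of at least 1 count or a mean of 50 counts, the replicate number as a block, the gene length slope or 2 surrogate variables (sva 3.50.0) as covariates, no fold change limit, a 2 Mb window, and each embryo left out. Figures were drawn with Python 3.11.15 and matplotlib 3.10.9.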

Additional observations from a re-analysis of the deposited data

Results flagged for a closer look

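Of 44 groups of 6 values examined for a single distant embryo (the 5 genes, their tested neighbours, *Zfp57*, marker sums, length slopes and total counts), 2 had one, and chance gives about 1 in 20. Both were sums of trophoblast markers, 0.0771 CPM in M-Z+ replicate 2 and 0.0831 CPM in M-Z- replicate 1, each resting on 1 count against 0 in the other 5 embryos. For the 5 genes no embryo stood as far from the rest of its group.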

How the results depend on the processing

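The log2 fold changes of the 5 genes kept their sign under all 20 other settings run for each, and none moved by as much as 1 SD of log2 CPM between replicates. With 1 embryo left out, *Plagl1* ranged from 1.20 to 1.33, *Phactr2* from −0.82 to −0.62, *Sf3b5* from −0.40 to −0.24, *Ltv1* from −0.38 to −0.27 and *Fuca2* from −0.25 to −0.12. The other settings gave 1.20 to 1.31 for *Plagl1*, −0.90 to −0.71 for *Phactr2* and −0.31 to −0.11 for *Sf3b5*. For *Ltv1* they gave −0.34 to −0.25 and for *Fuca2* −0.24 to −0.14. The number of the 5 genes called was 2 (*Plagl1* and *Phactr2*) in place of 1 by DESeq2 and by edgeR with the length slope or with 2 surrogate variables; nothing is read from these counts, since the genes were chosen on this difference.

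Over all genes, 13 were called, against 40 of 19573 by DESeq2 (0.204%), and of 16026 by edgeR 23 with the length slope (0.144%) and 24 with 2 surrogate variables (0.15%), and the cause was not tested. With 1 embryo left out the count was 11 to 15, and without the 3 libraries of steep slope it was 16. The same 13 genes were among those called by DESeq2, with the length slope, with 2 surrogate variables and without these 3 libraries. A block for replicate number gave 21 calls, and under this block the log2 fold change of *Phactr2* was −0.71. With the block the SE went from 0.16 to 0.13 for *Phactr2*, from 0.14 to 0.10 for *Sf3b5* and from 0.09 to 0.07 for *Ltv1*. It went from 0.12 to 0.11 for *Fuca2* and stayed at 0.12 for *Plagl1*. Deviations of same-numbered embryos correlated at 0.02 to 0.64, above 0.1 in 5 of 6 pairs. Of the 6 M-Z+ embryos, 3 correlated best with their own number. The labels do not say whether the numbers pair embryos, and a pairing or batch by number was not tested.

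The count of 1 called gene in the lists and of 0 among the rows near *Plagl1* other than the 5 genes held under every setting, the 2 Mb window included. Of the 10 genes most and least like *Plagl1*, 5 were also named by Spearman's rho and 4 after removal of the length slope. With GENCODE transcript lengths, chosen after the data were seen, the log2 level per length of *Plagl1* over *Ltv1* was 1.33 in place of −0.29 in M-Z+ and 2.95 in place of 1.33 in M-Z- embryos, since the length of *Plagl1* is then shorter.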
